A study of Mus musculus with 10 samples.

Results

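The genes described here are 10 genes that mark hepatocytes around the central vein of the liver lobule or that respond to Wnt signalling. They are Glul, Oat, Rhbg, Slc1a2, Lect2, Tbx3, Axin2, Notum, Rnf43 and Znrf3, taken as a named list from 29972 genes, and each value is the TPM (an abundance per transcript length, scaled to a fixed total per library) summed over the Ensembl transcripts of the gene. The study sequenced RNA of cells sorted by flow cytometry from mouse liver, in 10 libraries of 3 groups. The 4 HpC libraries hold peripheral cholangiocytes that arose from hepatocytes, the 3 pC libraries hold ordinary peripheral cholangiocytes, and the 3 H libraries hold hepatocytes. HpC and H mice carried Alb-Cre+/- with both copies of Rbpj and Hnf6 floxed (Alb-Cre+/-;Rbpjf/f;Hnf6f/f), whereas pC mice carried the same floxed alleles without Cre (Rbpjf/f;Hnf6f/f), so that a contrast of either HpC or H with pC is also a contrast of genotype. The Alb promoter drives Cre in hepatocytes and in the embryonic cells that give rise to them. All mice were of a mixed background of C57BL/6, FVB and CD1. HpC1 to HpC4 came from mice aged P124, P151, P144 and P139 (days after birth), pC1 to pC3 from mice aged P151, P119 and P142, and H1 to H3 from mice aged P134, P139 and P139. Whether H2, H3 and HpC4, which share an age, came from separate animals is not stated, so the p-values may measure only a technical spread there. Both kinds of cholangiocyte came from the nonparenchymal fraction after further digestion, whereas hepatocytes were sorted straight after collagenase perfusion.

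Wnt proteins act by stopping the destruction of beta-catenin, which then joins TCF/LEF factors on DNA and switches on target genes. In the liver, endothelial cells of the central vein secrete Wnts, and the hepatocytes next to them express a set of enzymes and transporters that the remaining hepatocytes lack, among them glutamine synthetase. Some Wnt targets feed back on the pathway: Axin2 helps to destroy beta-catenin, Notum inactivates Wnt proteins, and Rnf43 and Znrf3 remove Frizzled receptors from the cell surface. Cholangiocytes line the bile ducts, which run in the portal tracts at the far side of the lobule.

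Hepatocyte markers were highest in H, and cholangiocyte markers were higher in HpC and pC than in H. In every HpC library, however, hepatocyte markers summed to more than cholangiocyte markers. Levels are given as scaled TPM, that is TPM divided by a factor per library (a trimmed mean of log ratios over genes) that puts the libraries on a common scale. The sum of 10 hepatocyte markers was 85410 to 97542 in H, 3186 to 6261 in HpC and 982 to 2621 in pC. The sum of 9 cholangiocyte markers was 40.7 to 51.5 in H, 1717 to 2623 in HpC and 5339 to 5526 in pC, and Epcam, Krt19, Krt7 and Cftr were each under 1 in every H library. HpC1 and HpC2 stood apart, with 182167 and 33322 scaled TPM of pancreatic acinar and squamous epithelial markers against 10.8 to 126 in HpC3 and HpC4. These were acinar markers in HpC1 (Cela2a at 44443, the squamous Krt13 at 2.11). In HpC2 they were squamous markers (Krt13 at 31991, Cela2a at 4.4). Among pC, pC3 had 787, against 10.3 and 6.05 in pC1 and pC2. Because of the high values in HpC1 and HpC2, the tests below were also made without HpC1 and HpC2. Endothelial markers summed to 3.45 to 9.75 in HpC, 4.15 to 5.74 in pC and 0.541 to 0.742 in H, and leukocyte markers to 14 to 35.5, 22.5 to 24.9 and 0.443 to 0.808. TPM carries no sequencing depth, so the counting error of these values is unknown.

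Reference promoter sequence was at hand for 6 of the 10 genes, as 7 windows that reach from 250 bases before to 50 bases after a transcription start in RefSeq (GRCm38.p6, the mm10 build). Rnf43 had a pair of windows, and Rhbg, Notum, Tbx3 and Znrf3 had none. The core letters that TCF/LEF factors bind were searched on both strands as CTTTGAA or CTTTGAT or CTTTGTA or CTTTGTT, which differ in their last letters only and cannot overlap on the same strand. A match was found in 2 of the 7 windows, those of Lect2 and Slc1a2, against 5544 of all 32851 windows of the same length, or 16.9%. The match of Lect2 was CTTTGAT on the opposite strand with its first base 32 bases before the start, and that of Slc1a2 was the same letters on the opposite strand, 207 bases before. A match is a description of letters and not a binding site. The 250 bases before the start are shown for these 2 genes, with the match in capitals (it reads ATCAAAG on the gene's strand), and for Axin2 and Glul, which held no match in this window. Those of Lect2 lie at chr13:56548539-56548788 on the minus strand. Those of Slc1a2 lie at chr2:102706188-102706437 on the plus strand, inside the annotated gene, before a start within it. Those of Axin2 lie at chr11:108920099-108920348 and those of Glul at chr1:153899679-153899928, both on the plus strand.
Lect2: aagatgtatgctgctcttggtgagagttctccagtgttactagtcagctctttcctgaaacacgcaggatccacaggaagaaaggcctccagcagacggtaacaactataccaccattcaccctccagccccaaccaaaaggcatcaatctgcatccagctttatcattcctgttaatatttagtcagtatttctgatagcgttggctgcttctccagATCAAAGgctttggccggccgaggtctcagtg
Slc1a2: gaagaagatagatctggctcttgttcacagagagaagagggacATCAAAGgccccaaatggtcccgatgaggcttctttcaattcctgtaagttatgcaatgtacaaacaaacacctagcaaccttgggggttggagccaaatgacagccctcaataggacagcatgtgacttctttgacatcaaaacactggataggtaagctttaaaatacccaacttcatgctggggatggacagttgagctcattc
Axin2: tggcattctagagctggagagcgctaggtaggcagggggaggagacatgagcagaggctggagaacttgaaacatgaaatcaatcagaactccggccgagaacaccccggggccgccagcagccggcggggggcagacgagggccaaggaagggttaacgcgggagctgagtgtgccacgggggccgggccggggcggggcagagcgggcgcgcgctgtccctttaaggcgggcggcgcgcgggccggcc
Glul: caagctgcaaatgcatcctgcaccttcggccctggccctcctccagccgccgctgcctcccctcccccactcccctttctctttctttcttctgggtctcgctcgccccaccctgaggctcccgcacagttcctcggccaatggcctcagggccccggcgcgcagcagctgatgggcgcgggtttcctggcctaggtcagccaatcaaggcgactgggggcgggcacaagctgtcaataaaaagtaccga

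Hepatocytes held more transcript of 7 of these genes than either kind of cholangiocyte, by 4.72-fold (Axin2) to 78.4-fold (Lect2) on the scale tested, and cholangiocytes held more of 1, Znrf3. A gene is called where limma, run on log2(scaled TPM + 1), gives an adjusted p under 0.05 over the 14765 genes that reached 1 TPM in 3 or more libraries. Of the 10 genes 9 passed that filter. Notum passed it through the H libraries alone and Tbx3 through H and HpC4, which ties their difference from cholangiocytes to the filter, and the counts that follow describe only the genes that passed. In HpC against H, 7 of 9 were lower (Glul, Oat, Slc1a2, Lect2, Tbx3, Axin2 and Notum) and 1 was higher (Znrf3), where 59.9% of all genes were called, 30.7% as higher and 29.2% as lower. The same 7 were lower and the same 1 was higher in pC against H, where 59.6% of all genes were called, 31.1% as higher and 28.6% as lower. In HpC against pC none of the 9 was called, where 4.54% of all genes were called, 1.99% as higher and 2.55% as lower. At an unadjusted p under 0.05, 2 of the 9 were higher in HpC than in pC (Axin2 and Tbx3), against 17.8% of all genes in either direction. The comparisons with H share the H libraries, so their likeness is not independent evidence. In RNA from a sorted pool, fewer cells that express a gene and less RNA per cell cannot be told apart.

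The median log2 difference over the 9 genes was 0.13 in HpC against pC, −2.76 in HpC against H and −3.0 in pC against H. Over all genes tested it was −0.01, 0.08 and 0.11. Scaled TPM of the H libraries lay wholly above that of HpC for 6 of the 10 genes and above that of pC for 8, Rhbg included. Among all genes tested, 28.9% lay wholly lower in HpC than in H and 33.2% wholly lower in pC than in H. One gene, Znrf3, lay wholly higher in both kinds of cholangiocyte than in H, as did 31.6% of all genes in HpC and 37.1% in pC. Between HpC and pC the values overlapped for 9 of the 10, and Tbx3 alone lay wholly higher in HpC, against 6.78% of all genes wholly higher and 9.72% wholly lower.

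**Figure D1:**
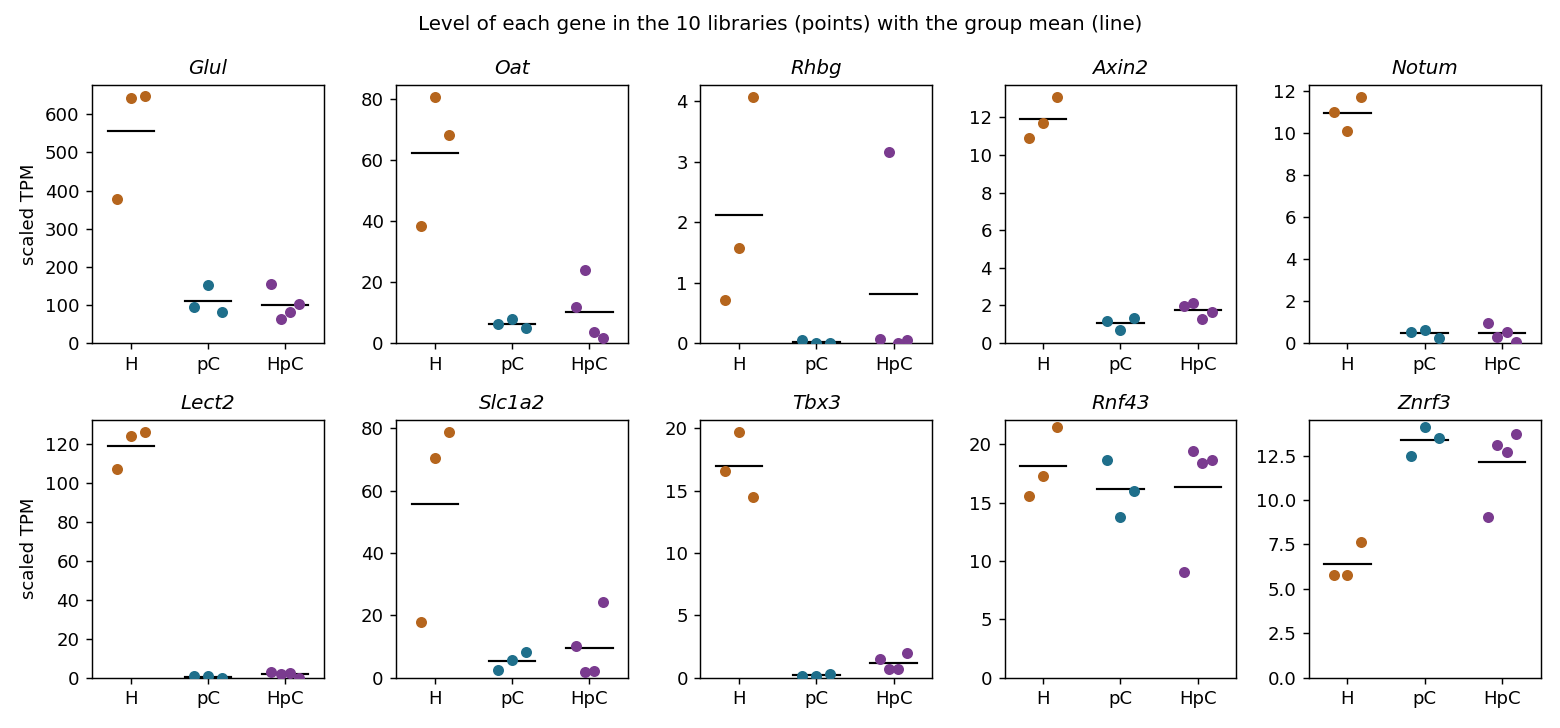
Scaled TPM (vertical axis, starting at 0, a separate range per gene) of the 10 genes in each library (points) of hepatocytes (H), peripheral cholangiocytes (pC) and hepatocyte-derived peripheral cholangiocytes (HpC), with the group mean as a line. For Glul, Oat, Axin2, Notum, Lect2 and Tbx3 every H point lies above every cholangiocyte point, Rnf43 overlaps in all groups, and Znrf3 is lowest in H.

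**Figure D2:**
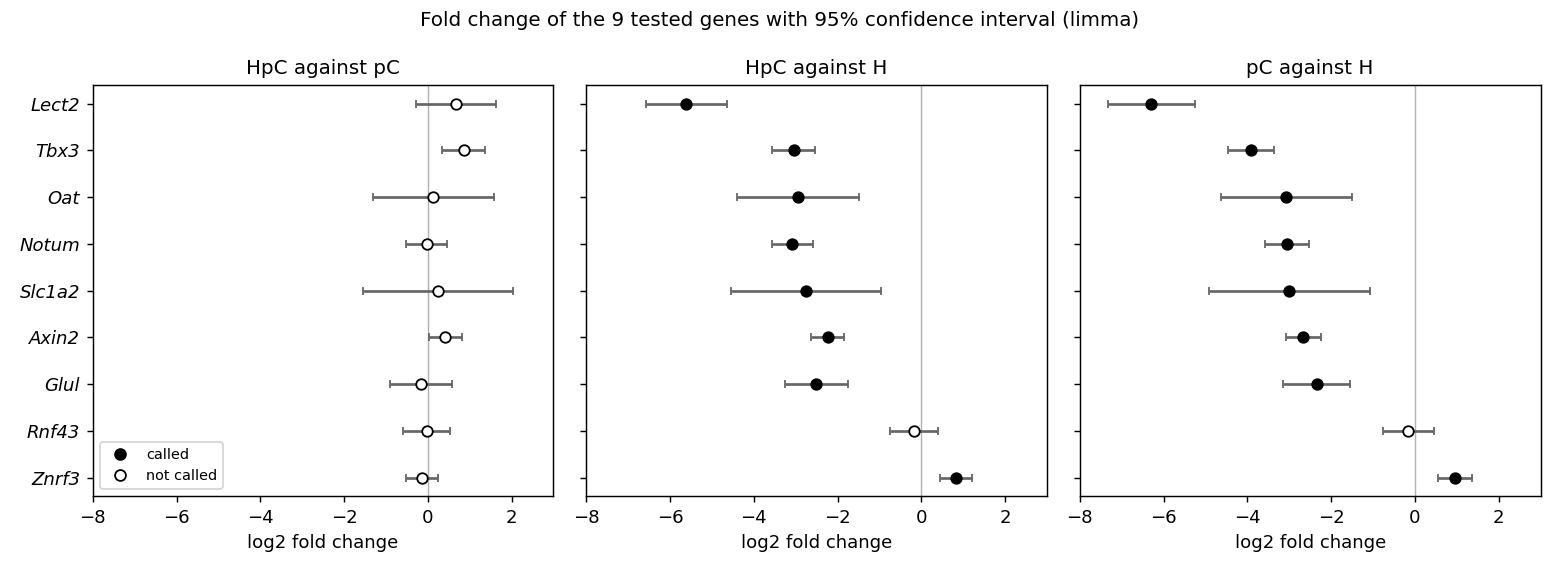
Log2 fold change (horizontal axis) of the 9 tested genes in the 3 comparisons, with the 95% confidence interval from limma as bars; filled points passed the adjusted p of 0.05. In HpC against pC no point is filled, and in both comparisons with H every point is filled but that of Rnf43, from −5.62 or −6.29 for Lect2 to 0.83 or 0.97 for Znrf3.

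Glul encodes glutamine synthetase, which joins ammonium to glutamate and is confined within normal liver to the hepatocytes nearest the central vein. The gene (ENSMUSG00000026473) lies at chr1:153899944-153909723 on the plus strand of mm10. Its scaled TPM was 379, 644 and 648 in H1 to H3, 154, 62.7, 80.2 and 101 in HpC1 to HpC4, and 95.5, 152 and 81.7 in pC1 to pC3. Every H library was above every cholangiocyte library, with H1 the lowest of H, and HpC and pC overlapped throughout. The means were 557 ± 154 (SD, n = 3) in H, 99.7 ± 39.7 (n = 4) in HpC and 110 ± 37.2 (n = 3) in pC, so that cholangiocytes of either kind still held 17.9% and 19.7% of the hepatocyte level. On the log2(scaled TPM + 1) scale, used for all differences below, that between HpC and H was −2.51 ± 0.34 (SE; adjusted p = 0.000103) and that between pC and H was −2.34 ± 0.36 (adjusted p = 0.000274). HpC and pC differed by −0.17, with a 95% interval from −0.91 to 0.58 (adjusted p = 0.839). Of the 50-base stretches of its longest transcript, 15.0% also occur in transcripts of other gene models, chiefly the pseudogene Glns-ps1, at 4.49 to 49.9 scaled TPM and highest in H as well.

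Oat encodes ornithine aminotransferase, a mitochondrial enzyme that turns ornithine into a precursor of glutamate and proline. The gene (ENSMUSG00000030934) lies at chr7:132557478-132576398 on the minus strand. Its scaled TPM was 38.3, 80.6 and 68 in H, 11.7, 23.9, 3.72 and 1.64 in HpC, and 6.33, 7.95 and 4.75 in pC. No cholangiocyte library reached the lowest H library, and HpC spread more widely than pC, with HpC1 and HpC2 above and HpC3 and HpC4 below all 3 pC libraries. The difference from H was −2.94 ± 0.65 in HpC (adjusted p = 0.00297) and −3.07 ± 0.70 in pC (adjusted p = 0.0035). Between HpC and pC it was 0.13, with an interval from −1.32 to 1.59 (adjusted p = 0.938), and −1.03 without HpC1 and HpC2 (adjusted p = 0.203). These are the libraries with acinar markers (HpC1) and squamous markers (HpC2), whose part in the Oat values was not tested.

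Slc1a2 encodes a glutamate transporter (GLT-1) best known from astrocytes and expressed by central hepatocytes. The gene (ENSMUSG00000005089) lies at chr2:102658659-102790784 on the plus strand. It was at 18, 70.6 and 78.9 scaled TPM in H, at 10.3, 1.78, 2.10 and 24.4 in HpC and at 2.42, 5.71 and 8.27 in pC. HpC4 lay above H1, so HpC and H overlapped, whereas every pC library was below every H library. The difference from H was −2.76 ± 0.80 in HpC (adjusted p = 0.0131) and −3.0 ± 0.86 in pC (adjusted p = 0.0122), and between HpC and pC it was 0.24, with an interval from −1.55 to 2.03 (adjusted p = 0.906). The call against H in HpC was lost without H2 (−2.47, adjusted p = 0.0514), without H3 (−2.39, adjusted p = 0.0540) and without HpC1 and HpC2 (−2.43, adjusted p = 0.0557). The difference grew to −3.38 without HpC4, and without H1 to −3.42 in HpC and −3.66 in pC.

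A processed transcript of 209 bases, Slc1a2-208, held 28.1 of the 39.3 deposited TPM of Slc1a2 in HpC4 and was at 0 in HpC1, HpC2 and HpC3. It was at 0, 6.48 and 7.26 in pC and at 0, 6.22 and 0 in H. Its share of the gene's TPM pooled over a group was 7.3% in H, 54.8% in HpC and 53.4% in pC. The share in HpC thus came from HpC4 alone and that in H from H2 alone. Short single-end reads divide the transcripts of a gene uncertainly. On the longest protein-coding transcript alone, the difference of Slc1a2 was −1.75 in HpC against H (adjusted p = 0.000958) and −2.01 in pC against H (adjusted p = 0.000605). The protein-coding transcript Slc1a2-205 held 20.8% of the gene's TPM in H against 3.3% in HpC and 2.1% in pC. Its deposited TPM was 2.47, 6.73 and 8.62 in H, 1.21, 0.394, 0 and 0.065 in HpC, and 0.383, 0.155 and 0 in pC, without overlap of H and cholangiocytes.

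Rhbg encodes an ammonium transporter of the Rhesus family found in the membrane of central hepatocytes. The gene (ENSMUSG00000104445; chr3:88242874-88254709, minus strand) reached 1 TPM as deposited only in HpC2 and H3 and was not tested. Its scaled TPM was 0.717, 1.57 and 4.07 in H, 0.0621, 3.16, 0 and 0.0445 in HpC, and 0.0405, 0 and 0 in pC, where an exact 0 says only that the gene is listed at 0. HpC2 was thus inside the range of H, and the other cholangiocyte libraries were all below it. The gene model Gm38392 overlaps Rhbg on the same strand and shares 60.4% of its 50-base stretches, so reads can be divided between them in any proportion. The sum of both was 2.32, 7.68 and 4.07 in H, 8.93 in HpC2, 0.0729 to 0.294 in the other HpC libraries and 0.116 to 0.414 in pC. In a fit without the filter the difference of Rhbg was −0.94 in HpC against H (adjusted p = 0.219) and −1.48 in pC against H (adjusted p = 0.0781).

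Lect2 encodes a protein that hepatocytes secrete into blood, and it is a known target of beta-catenin in liver. The gene (ENSMUSG00000021539) lies at chr13:56542464-56548502 on the minus strand, and its upstream stretch is the one printed first above. Scaled TPM was 107 in H1, 126 in H3 and between them in H2, 2.92, 1.67, 2.37 and 0 in HpC, and 0.856, 0.918 and 0 in pC. The difference between hepatocytes and cholangiocytes was larger than for any other of the 9 tested genes, at −5.62 ± 0.43 in HpC against H (adjusted p = 2.04e-06) and −6.29 ± 0.46 in pC against H (adjusted p = 1.53e-06). The residual level in cholangiocytes, 1.46% of H in HpC and 0.497% in pC, can be set beside that of 10 hepatocyte markers, whose median was 3.02% and 0.879%. Of the libraries in which Lect2 is listed at 0, pC3 also had the lowest sum of hepatocyte markers of its group (982). HpC4 had 3186, close to the 3217 of HpC2, and on deposited TPM it was above HpC1 and HpC2. Alb alone made up 2719 of the 3186 in HpC4. On scaled TPM all of these markers but Alb and Serpina1b were lowest of HpC in HpC4. Apoa1, for example, was at 18.5 in HpC4 and at 113 to 390 in the other HpC libraries. The part of hepatocyte RNA in the residual Lect2 level was not tested. HpC and pC differed by 0.67 ± 0.43 (adjusted p = 0.465), and without HpC4 by 1.10 (adjusted p = 0.0489).

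Tbx3 encodes a T-box repressor of transcription that is needed for liver growth in the embryo and responds to beta-catenin. The gene (ENSMUSG00000018604) lies at chr5:119670669-119684724 on the plus strand. Scaled TPM was 16.6, 19.7 and 14.5 in H, 1.46, 0.718, 0.670 and 2.01 in HpC, and 0.158, 0.136 and 0.261 in pC. The 3 groups did not overlap at all, in the order H, HpC and pC, which held for no other of the 10 genes. Against H the difference was −3.05 ± 0.23 in HpC (adjusted p = 1.62e-06) and −3.91 ± 0.24 in pC (adjusted p = 5.32e-07).

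Between HpC and pC, Tbx3 differed by 0.86 ± 0.23, with an interval from 0.35 to 1.36, and missed the threshold, with an unadjusted p of 0.00353 in limma and an adjusted p of 0.0655. HpC held 7.18% and pC 1.09% of the hepatocyte level. The difference passed with a pseudocount of 0.1 in place of 1 (2.10, adjusted p = 0.0179), with libraries weighted by their spread (0.72, adjusted p = 0.0431) and without HpC2 (0.97, adjusted p = 0.0458). It came to 0.07 on the longest protein-coding transcript alone, Tbx3-202 (adjusted p = 0.839). That transcript was listed at 0.15 deposited TPM in HpC1 and at 0 in every other cholangiocyte library. It therefore cannot decide whether HpC and pC differ. Tbx3-201, which held 46.4% of the gene's TPM in HpC and 50.9% in pC, was at 0.338, 0.271, 0.698 and 1.487 in HpC. In pC it was at 0.107, 0 and 0.334. The processed transcript Tbx3-205 held 35.9% in HpC and 0% in pC. Stellate and mesothelial markers also stood higher in HpC than in pC: their summed scaled TPM was 46.6 to 108 in HpC, 33.0 to 38.4 in pC and 2.14 to 3.30 in H, and 3 of 9 tested (Col3a1, Msln and Wt1) were called higher in HpC than in pC. None of the list was called on deposited TPM, over protein-coding genes alone, without the filter, or without HpC3, pC1 or pC2. The sum of hepatocyte markers was higher in HpC than in pC as well (3186 to 6261 against 982 to 2621). Over HpC1 to HpC4 this sum was 6261, 3217, 5995 and 3186. That of stellate and mesothelial markers was 108, 46.6, 88.2 and 80.3. Tbx3 in the same libraries was at 1.46, 0.718, 0.670 and 2.01. Single markers could run in another order than their sum, such as Msln at 14.7, 17.1, 29.1 and 32.8. The part of either set of markers in the Tbx3 difference was not tested.

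Axin2 encodes a scaffold of the complex that destroys beta-catenin and is the most widely used readout of the pathway. The gene (ENSMUSG00000000142) lies at chr11:108920349-108950783 on the plus strand. Scaled TPM was 10.9, 11.7 and 13.1 in H, 1.98, 2.13, 1.26 and 1.64 in HpC, and 1.19, 0.666 and 1.34 in pC. H lay far above both other groups, and HpC and pC overlapped only through HpC3, which was below pC3. The means were 11.9 ± 1.09 (SD, n = 3), 1.75 ± 0.385 (n = 4) and 1.07 ± 0.355 (n = 3). The difference of Axin2 was −2.24 ± 0.18 in HpC against H (adjusted p = 2.66e-06) and −2.66 ± 0.19 in pC against H (adjusted p = 1.37e-06). The difference of 0.42 ± 0.18 between HpC and pC had an unadjusted p of 0.0422 in limma and an adjusted p of 0.258.

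Notum encodes a secreted enzyme that strips the lipid from Wnt proteins. The gene (ENSMUSG00000042988) lies at chr11:120653788-120661175 on the minus strand. Scaled TPM was 11, 10.1 and 11.7 in H, 0.959, 0.277, 0.512 and 0.0565 in HpC, and 0.537, 0.599 and 0.223 in pC. The cholangiocyte groups overlapped and had nearly the same mean, 0.451 ± 0.386 (SD, n = 4) and 0.453 ± 0.201 (n = 3), which is 4.13% and 4.14% of H. The difference from H was −3.08 ± 0.22 in HpC (adjusted p = 1.2e-06) and −3.05 ± 0.23 in pC (adjusted p = 2.03e-06), and that between HpC and pC was −0.03, with an interval from −0.52 to 0.46 (adjusted p = 0.959). The antisense models Notumos and Myadml2os cover 31.7% of the 50-base stretches of Notum, and the counting is not stated to use strand, so their reads cannot be told apart. Both were listed at 0.646 scaled TPM or less in every library.

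Rnf43 and Znrf3 encode related ubiquitin ligases of the cell surface that clear Frizzled receptors unless R-spondins block them through Lgr receptors. On TPM summed over transcripts they did not follow the other feedback genes Axin2 and Notum. With transcripts weighted by their length, Rnf43 was lower than in H in both HpC and pC, as given below. The Rnf43 gene (ENSMUSG00000034177; chr11:87662722-87735539, plus strand) was at 15.6, 17.3 and 21.5 scaled TPM in H, 9.06, 19.4, 18.4 and 18.7 in HpC, and 18.7, 13.8 and 16 in pC. All 3 groups overlapped, with HpC1 below all other libraries. The difference was −0.18, with an interval from −0.75 to 0.39, in HpC against H (adjusted p = 0.56), −0.16, with an interval from −0.76 to 0.45, in pC against H (adjusted p = 0.643) and −0.03 in HpC against pC (adjusted p = 0.971).

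Znrf3 (ENSMUSG00000041961; chr11:5276324-5444847, minus strand) was at 5.78, 5.77 and 7.64 scaled TPM in H, 9.06, 13.1, 12.7 and 13.7 in HpC, and 12.5, 14.1 and 13.5 in pC. Every cholangiocyte library lay above every H library, and HpC and pC overlapped. The difference from H was 0.83 ± 0.17 in HpC (adjusted p = 0.0019) and 0.97 ± 0.18 in pC (adjusted p = 0.0011), and it was −0.14 ± 0.17 between HpC and pC (adjusted p = 0.712). It was above 0 and called against H in every alternative tried, from 0.44 to 1.79 in HpC and from 0.63 to 2.33 in pC. All 3 of its transcripts in the tables are protein-coding, and each held 23.0% to 46.8% of the gene's TPM in every group.

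Results for Glul, Oat, Slc1a2, Rhbg and Rnf43 depended on the scaling between libraries. The scaling factors were 0.499 to 0.585 in H, 1.53 to 1.59 in pC and 0.668 to 1.61 in HpC, so that TPM as deposited puts hepatocytes lower by comparison. On deposited TPM the median of all genes moved to −0.36 in HpC against pC, 0.87 in HpC against H and 1.2 in pC against H, and the share of calls that were higher moved from 43.8%, 51.2% and 52.1% to 26.1%, 83.3% and 88.2%. Against that median Rnf43, at 0.89 in HpC against H (adjusted p = 0.0909) and 1.31 in pC against H (adjusted p = 0.0224), stood where most genes did. The difference of Glul was −1.38 in HpC against H (adjusted p = 0.00362), and that of −0.79 between pC and H missed the threshold (adjusted p = 0.0661). For Slc1a2 both differences from H missed it, at −1.70 (adjusted p = 0.0626) and −1.56 (adjusted p = 0.0932), and for Oat the values of HpC and H came to overlap. With TPM recomputed over protein-coding nuclear genes alone, where the all-gene medians were 0.80 and 1.06, Rnf43 was at 0.66 and 1.0 and missed the threshold (adjusted p = 0.208 and 0.0744), and Rhbg was tested and lower in pC than in H (−1.53, adjusted p = 0.0453). Lect2, Tbx3, Notum, Axin2 and Oat were lower and Znrf3 higher than in H under all 4 scalings.

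**Figure D3:**
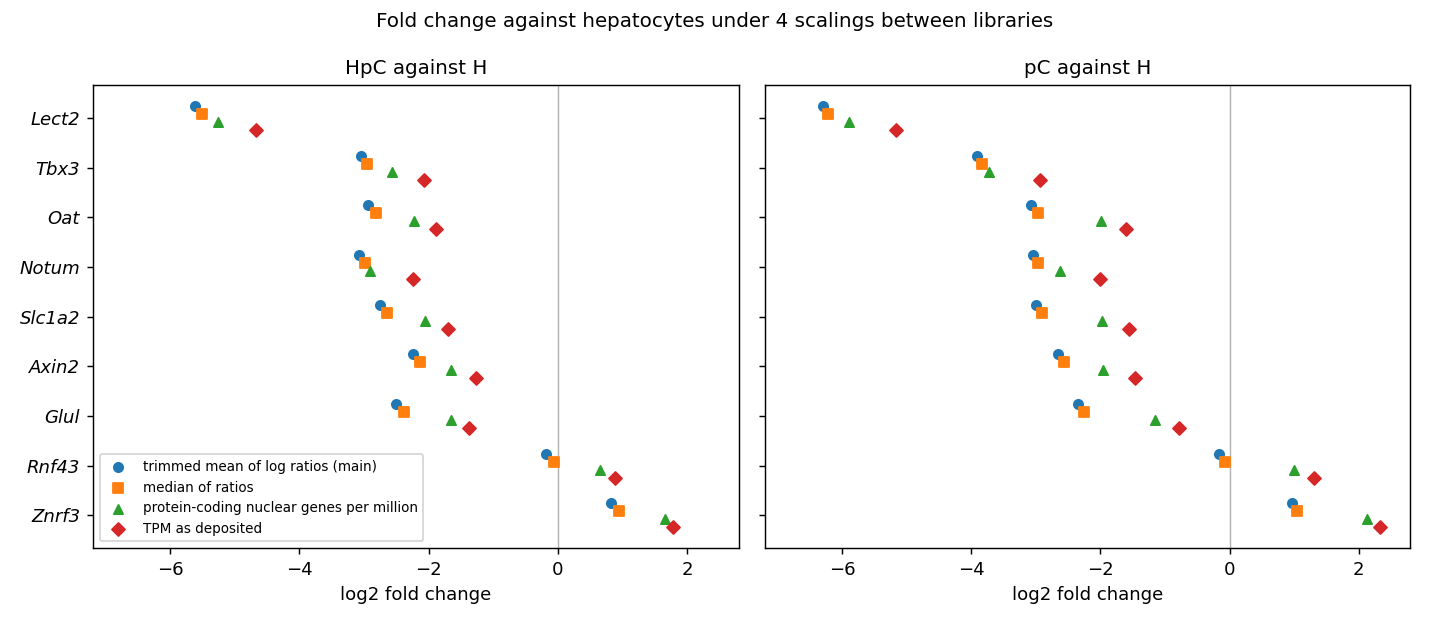
Log2 fold change against hepatocytes (horizontal axis) of the 9 tested genes in HpC and pC under 4 scalings between libraries (symbols). All symbols of 1 gene shift together to the right from the trimmed mean of log ratios to deposited TPM; Rnf43 crosses 0, from −0.18 to 0.89 in HpC and from −0.16 to 1.31 in pC, and no other gene does.

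The transcripts behind the sums differed between groups for some of these genes. A short protein-coding transcript of 379 bases, Glul-203, held 69.9%, 67.9% and 63.9% of Glul TPM in HpC, pC and H, and the complete transcript Glul-201 of 2792 bases held 21.9%, 23.1% and 22.1%, so the division was alike in all groups. In Rnf43 a retained-intron transcript of 378 bases, Rnf43-205, held 33.0% in HpC and 39.2% in pC but 7.2% in H. Its deposited TPM was 0 in H1 and H3 and 2.06 in H2, against 1.81 to 9.64 in HpC and 8.18 to 11.1 in pC. With transcripts weighted by their length, which gives short transcripts little weight, Rnf43 was lower in HpC than in H, by a difference of −0.51 (adjusted p = 0.0117), and in pC than in H, by one of −0.47 (adjusted p = 0.0238). Notum-202, at 47.3% of Notum TPM in H, held 4.0% in HpC and 0% in pC, and Tbx3-202, at 32.9% of Tbx3 TPM in H, held 2.5% and 0%.

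Other genes of the central zone were lower in cholangiocytes as well. In a list of 12, among them enzymes of drug, bile acid, vitamin C and heme metabolism, nuclear regulators, a transporter and a hormone receptor, 11 were tested and 10 were lower than in H in HpC (median −5.01) and in pC (median −5.87). Ahr, the dioxin receptor, was not called, with differences of 0.10 in HpC and −0.29 in pC. It was called higher than in H on deposited TPM (1.2 in HpC, adjusted p = 0.021, and 1.22 in pC, adjusted p = 0.0227) and, in HpC, without HpC1 and HpC2 (0.41, adjusted p = 0.0326). The largest differences in HpC against H were those of Cyp7a1, the rate-limiting enzyme of bile acid synthesis (−7.28 ± 0.95), Cyp2e1 (−6.39), Cyp1a2 (−6.13) and Nr1i3, the nuclear receptor CAR (−5.88). All 12 genes of a periportal list, on the opposite side of the lobule, were also lower, with medians of −5.64 in HpC and −6.48 in pC. None of either list was called in HpC against pC (medians 0.43 and 0.40). Without HpC1 and HpC2, Ahr and the periportal gene Igf1 were called higher in HpC than in pC, and the medians were 0.23 and −0.37. Igf1 was also called without HpC2 alone, and both genes with libraries weighted by their spread. The periportal median was −0.02 on deposited TPM.

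The 7 genes that were lower in cholangiocytes stood between 0.497% and 19.7% of their hepatocyte level in scaled TPM. As a share of the H mean, Glul, Oat, Slc1a2 and Axin2 stood at 17.9%, 16.4%, 17.2% and 14.7% in HpC and at 19.7%, 10.2%, 9.79% and 8.94% in pC. Single libraries set some of these shares: Oat in HpC stood at 9.1% without HpC2, and Slc1a2 in HpC at 8.46% without HpC4. Notum stood at 4.13% in HpC and 4.14% in pC, Tbx3 at 7.18% and 1.09%, and Lect2 at 1.46% and 0.497%. The list medians were 2.62% and 1.36% for the other central genes, 2.77% and 1.14% for the periportal genes and 3.02% and 0.879% for the hepatocyte markers. Within these lists, Lhpp stood at 16.3% and 18.3%, Cpox at 14.9% and 14.1%, Ctsc at 20.4% and 14.8%, and Ahr at 110% and 81.3%. On deposited TPM, Glul, Oat, Slc1a2 and Axin2 stood at 39.3%, 33.5%, 44.9% and 32.8% in HpC and at 59.0%, 30.6%, 30.1% and 26.5% in pC. The list medians on that scale were 5.07% and 4.0% for the central genes, 4.58% and 3.33% for the periportal genes and 5.43% and 2.59% for the hepatocyte markers. On scaled TPM, Rnf43 stood at 90.4% and 89.0% and Znrf3 at 190% and 209%. These shares describe the libraries, and no test of lists was made.

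**Figure D4:**
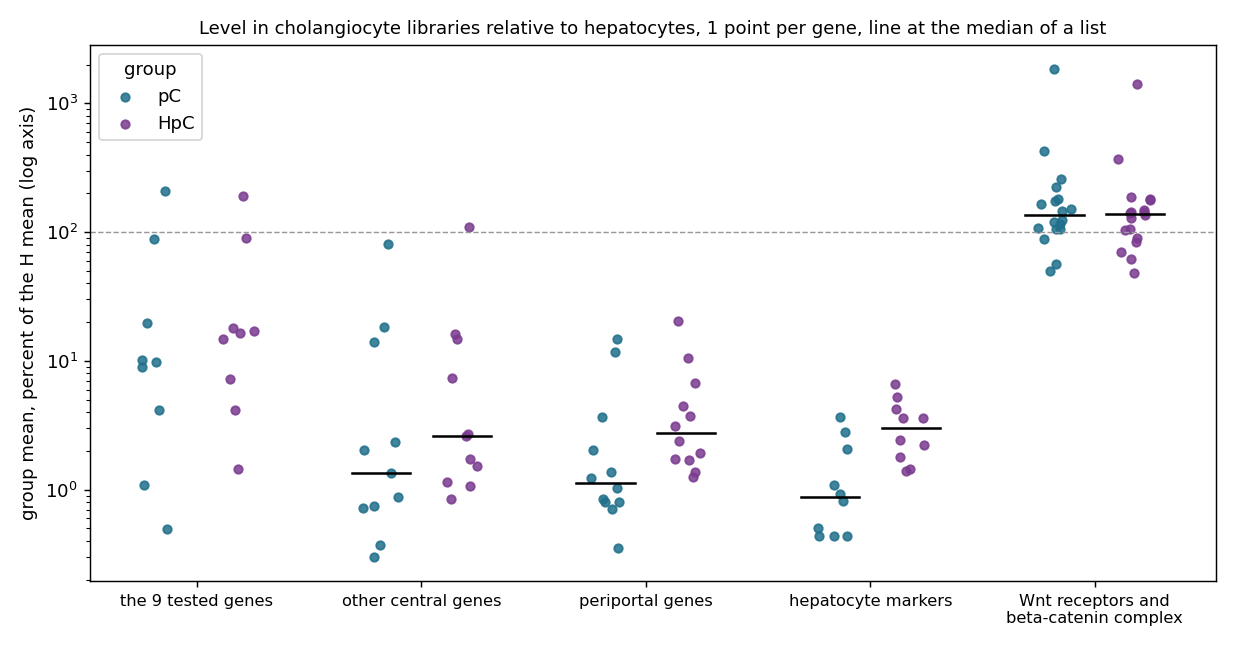
Mean scaled TPM in pC and HpC as a percent of the H mean (vertical log axis; dashed line at 100%), 1 point per gene; Lgr6, nearly absent from H, is left out, and black lines are list medians. Most central, periportal and hepatocyte marker genes lie below 10%, as do Lect2, Notum and Tbx3. Glul, Oat, Slc1a2 and Axin2 lie near 9% to 20%, as do Lhpp and Cpox of the central list and Ctsc of the periportal list. Rnf43 and Znrf3 lie near or above 100%, and Ahr of the central list lies at 110% in HpC and 81.3% in pC.

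Among 14 other Wnt target and feedback genes, 9 were too low to be tested, including the well-known targets Lgr5, Sp5, Nkd1 and Lef1, which stayed under 1 TPM as deposited in every library. Scaled TPM of Lgr5, a receptor for R-spondins, was 0.574, 1.23 and 1.31 in H, 0.162 to 0.425 in HpC and 0.305 to 0.597 in pC. Of the 5 tested, 3 were higher in HpC than in H and none lower, and 3 were higher and 1 lower in pC than in H: Cd44, Myc and Tnfrsf19 were the higher ones, all of which also respond to other signals, and Tcf7 was the lower one. Tcf7, a TCF factor, differed by −0.80 in pC against H (adjusted p = 0.00274), but by 0.13 on deposited TPM (adjusted p = 0.686) and −0.09 over protein-coding genes alone (adjusted p = 0.822). Under both of these scalings 4 genes were higher and none lower in pC than in H and in HpC than in H. Myc, a regulator of growth, was higher by 4.79 ± 0.29 in HpC than in H, and Cd44, a hyaluronan receptor, by 6.22 ± 0.48. Thus Cd44 and Myc were in the opposite direction to Axin2 and Notum.

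Cd44 was the 1 gene of that list called in HpC against pC. Scaled TPM was 74.0, 204, 71.5 and 56.1 in HpC, 18.7, 9.20 and 34.1 in pC and 0.405 or less in H, and HpC and pC did not overlap. The difference of 2.22 ± 0.48 (adjusted p = 0.0277) missed the threshold without HpC3 (0.0562), pC1 (0.0949) or pC2 (0.116), without HpC1 and HpC2 (0.0805) and on deposited TPM (0.0609), all as adjusted p. It also missed it on the longest protein-coding transcript (0.195), with H left out of the fit (0.0809), with a pseudocount of 0.1 (0.0649), without the filter (0.0628) and with the replicate block (0.0662). On deposited TPM, Tnfrsf19 was the 1 gene of the list called, as lower in HpC.

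Of 19 receptor and beta-catenin complex genes of the Wnt pathway, 18 were at 1.19 scaled TPM or more in every library, and the exception was Lgr6. Of the 19, 8 were higher and 3 lower in HpC than in H, and 10 were higher and 2 lower in pC than in H, with medians of 0.43 and 0.54. On deposited TPM these counts became 16 and 0, and 17 and 0. Ctnnb1, which encodes beta-catenin itself, was at 164 to 210 scaled TPM in H, 305 to 407 in HpC and 486 to 515 in pC, and was higher than in H by 0.89 ± 0.16 in HpC (adjusted p = 0.000708). Tcf7l1, a TCF factor that mostly represses, was higher by 3.21 ± 0.23. Lgr4, an R-spondin receptor, was lower, with differences of −0.98 ± 0.15 in HpC and −0.76 ± 0.16 in pC, calls that were not made on deposited TPM, where none of the 19 was lower.

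One gene of these 19 differed between HpC and pC. Lgr6, another R-spondin receptor and partner of Rnf43 and Znrf3, was at 21, 20.8, 37.9 and 34.6 scaled TPM in HpC, at 0.772, 0.572 and 0.900 in pC and at 0.0312, 0.0476 and 0 in H. No HpC library came near the range of pC. The difference of 4.03 ± 0.23 (adjusted p = 2.44e-05) passed in every alternative tried, with 0.00293 as the highest adjusted p. Wnt2, Wnt9b and Rspo3, the ligands made by central vein endothelium, were at 1.35 scaled TPM or less in every library.

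Genes that handle glutamate, glutamine, ornithine and ammonium beside Glul, Oat, Slc1a2 and Rhbg changed in both directions. Of 18, 15 were tested: 8 were higher and 5 lower in HpC than in H, and 6 were higher and 5 lower in pC than in H. Aldh18a1, which makes the proline and ornithine precursor from glutamate, was higher in HpC than in H by 3.90 ± 0.50. Otc, a urea cycle enzyme, and Slc38a3, a glutamine transporter of hepatocytes, were lower, with differences of −5.92 ± 0.43 and −5.6 ± 0.71. Between HpC and pC, Slc38a4 alone was called, an amino acid transporter of hepatocytes. It was at 20.3, 9.75, 11.1 and 10.6 scaled TPM in HpC, at 49.2, 40.4 and 26.1 in pC and at 248, 339 and 360 in H. It was thus lowest in HpC, with a difference of −1.52 ± 0.29 from pC (adjusted p = 0.0153). Leaving out pC1 or pC2 took the adjusted p to 0.0712 or 0.0755.

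Across the 10 libraries, the genes whose log2 values were most like those of Glul, compared over 7290 genes whose mean log2 value was 3 or more, were Etfbkmt, As3mt, Cd59a, Galt and Pink1, with a Pearson r from 0.985 to 0.989. For Axin2 they were Ikbkg, Mtch2, Glrx5, Mmd and Gclc, with r from 0.990 to 0.994. Each of these 10 genes was higher in H than in both other groups by its mean scaled TPM (for Cd59a 99.8 in H, 18.3 in HpC and 19.9 in pC, for Ikbkg 91.7, 25.1 and 18). The 10 points share 3 groups, so a high r mainly repeats the difference of H from the rest, and no p is given.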

How the data were processed

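RNA of 10 libraries (4 HpC, 3 pC, 3 H) was analysed from transcript TPM values that the authors deposited, 1 table per library; the submitters' processing notes name kallisto, DESeq and mm10, with no versions or roles. DESeq was not used here. Sequencing depth is unknown because TPM sums to a fixed total. Of 85276 transcripts, 81927 matched GENCODE M21 and were summed to 29972 genes; the 3349 others held 4.22% to 9.06% of a library. TPM was rescaled by an unweighted trimmed mean of log ratios (30% of ratios and 5% of levels trimmed at each end). limma 3.58.1 (R 4.3.3, mean-dependent prior variance, 1 fit of all libraries) compared groups on log2(scaled TPM + 1), with Benjamini-Hochberg adjustment over 14765 genes at 5%; it was tested on simulated data. Fold changes on that scale understate changes of low genes. Counts had been assumed; limma was the stated replacement for TPM. Shared sequence was searched over 50-base stretches of the longest transcript. Python 3.11.15, pandas 2.3.3 and matplotlib 3.10.9 prepared tables and figures.

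The 10 genes, the gene lists and the alternatives were chosen with earlier results of these data known. Named were the 10 genes, list genes called in HpC against pC, up to 4 called genes of each list with the largest fold against H, any gene at 0 throughout a group, and the 5 genes most like Glul and Axin2. Ahr, Lhpp, Cpox, Ctsc, Lgr4, Lgr5, Ctnnb1, Tcf7, Sp5, Nkd1, Lef1, Wnt2, Wnt9b, Rspo3 and Igf1 were named beyond that rule after their values were seen. Some list genes that the rule names are not reported here. Alternatives were other scalings, pseudocounts, filters, weights and prior variances, a replicate block, fits of 2 groups, left-out libraries and, added after seeing the data, the longest protein-coding transcript and transcripts weighted by length.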

Additional observations from a re-analysis of the deposited data

Results flagged for a closer look

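In 2 of the 10 genes 1 HpC library stood outside the other HpC libraries by more than Dixon's 95% critical value for the gap to the nearest other library as a share of the whole range; chance does this in about 1 of 20 groups. Rhbg was at 3.16 scaled TPM in HpC2, a gap of 0.98 of the range, while the other HpC libraries were at 0.0621 or less. The overlapping model Gm38392 was also highest among HpC in HpC2, at 5.77. Rnf43 was at 9.06 scaled TPM in HpC1, a gap of 0.899 of the range below the other HpC libraries at 18.4 to 19.4. The summed acinar and squamous markers were at 182167 scaled TPM in HpC1, where they were acinar, and at 33322 in HpC2, where they were squamous. Their part in these values was not tested. Without HpC1, Rnf43 differed between HpC and pC by 0.22 and between HpC and H by 0.06, neither past the threshold (adjusted p = 0.54 and 0.764).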

How the results depend on the processing

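In HpC against H, 6 to 8 tested genes were lower and 1 higher under every alternative, and in pC against H 5 to 8 were lower and 1 higher, or 2 higher on deposited TPM, where Rnf43 was called at 1.31. Of all 14765 genes, 1519 were lower and 7553 higher in HpC against H on deposited TPM. With array weights (libraries weighted by their spread) these were 4866 and 5065. In pC against H they were 1255 and 9361 on deposited TPM, and 4705 and 5183 with array weights. In HpC against pC none was lower under any alternative, and 1 was higher with a pseudocount of 0.1 or array weights (Tbx3). Leaving out 1 library gave 0 to 1 higher (Tbx3 without HpC2, Lect2 without HpC4). Of all 14765 genes, calls in HpC against pC ran from 138 higher and 146 lower without pC2 to 831 higher and 966 lower with array weights. Signs turned as follows, and the cause was not tested. In HpC against pC, Oat was −0.29 on deposited TPM, −0.23 over protein-coding genes alone, −0.54 with array weights and −1.03 without HpC1 and HpC2. Slc1a2 was −0.14, −0.09 and −0.21 under the first 3 of these, Rnf43 0.14 with array weights, 0.20 without HpC1 and HpC2 and 0.01 with median-of-ratios scaling, and Notum 0.02 on the longest transcript. In HpC against H, Rnf43 was 0.89, 0.66 and 0.04 on deposited TPM, over protein-coding genes alone and without HpC1 and HpC2, and in pC against H 1.31 and 1.0 under the first 2. Leaving out 1 library, the HpC against pC difference ran from −0.40 to 0.09 for Glul, −0.42 to 0.66 for Oat, −0.19 to 0.11 for Notum, −0.38 to 0.69 for Slc1a2 and −0.13 to 0.22 for Rnf43, and HpC against H from −0.28 to 0.06 for Rnf43.

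With the replicate number as a block, the counts of genes called were those of the fit without it in all 3 comparisons; in HpC against pC Notum turned to 0.11 and Slc1a2 to −0.38, neither called, and the calls of Slc38a4 (adjusted p = 0.0599) and Cd44 (adjusted p = 0.0662) were lost. Libraries of the same number correlated by −0.05 to 0.08 in their deviations from the group means, so the numbers are not shown to pair them. On the longest transcript Axin2 and Rnf43 fell under the filter. Sequencing depth is unknown, so nothing can be said of what it limits for Rhbg and other genes near 0.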
